A study of Mus musculus with 13 samples.

Results

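The genes described here are 9 enzymes that guard the redox state of a cell, measured by RNAseq in C2C12 mouse myoblasts after knockdown (KD) of the RNA-binding protein YBX3. Of the 9, 3 are enzymes of the pentose phosphate pathway (Pgd, Taldo1 and Tkt) and 6 are targets of the transcription factor NRF2 (Nqo1, Txnrd1, Gclc, Gclm, Hmox1 and Srxn1). They were chosen by symbol, with earlier results of these data known. Each symbol matched 1 Ensembl identifier among the 55642 genes of the deposited table. All 9 passed the filter on low counts, which kept 16848 genes. C2C12 is an established mouse myoblast line that fuses into myotubes when the serum is changed.

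Cells were transfected with nontargeting siRNAs (control KD) or with siRNAs against YBX3 (YBX3 KD), and every library was made 48 h after transfection. Proliferating myoblasts (0 day) gave 4 control KD and 4 YBX3 KD libraries, named replicates A to D. Differentiating myoblasts, kept for 24 h in differentiation medium (1 day), gave 2 control KD libraries (C and D) and 3 YBX3 KD libraries (B, C and D). All groups are the same line with no other genetic change, and which YBX3 siRNAs went into the RNAseq samples is not given in the sources used here. The labels do not say that the replicates were separate cultures, so the p-values measure the spread between these libraries.

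The pentose phosphate pathway makes ribose 5-phosphate for nucleotides from glucose and, in its oxidative arm, NADPH. Pgd encodes 6-phosphogluconate dehydrogenase, which forms NADPH in that arm. Transaldolase (Taldo1) and transketolase (Tkt) form the non-oxidative arm that links the pentoses back to glycolysis. NRF2, encoded by Nfe2l2, is held low by the KEAP1 adaptor in unstressed cells and, when released, binds antioxidant response elements with small MAF partners. Its targets make glutathione (Gclc and Gclm), reduce thioredoxin (Txnrd1), quinones (Nqo1) and sulfinylated peroxiredoxins (Srxn1), and break down heme (Hmox1). NRF2 is also known to raise the pentose phosphate enzymes, which is why the groups are described together.

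The antioxidant response element was searched for because it is the sequence that the NRF2 targets are known for. Its core was spelled TGACNNNGCA or TGAGNNNGCA and searched on both strands of the 1000 bases before the start of each gene's canonical transcript (GRCm39, GENCODE vM39). It was found before 3 of the 9 genes and before 2704 of the 13111 protein-coding genes tested (20.6%). Within 250 bases of the start it was found before 1 of the 9, against 5.4% of those genes. The matches are printed below with the motif in capitals and 10 bases on either side, each 5′ to 3′ on the strand that reads the motif:
Nqo1: agagtcacagTGAGTCGGCAaaatttgagc
Txnrd1: cgtgtcagaaTGACAAAGCAaaaatccagt
Taldo1: tgtaatagctTGAGCCAGCAtattcaaaga

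The Nqo1 match lay at chr8:108130254-108130283 on the minus strand, as the gene does, with its centre 334 bases before the start. No annotated gene covered it. The Txnrd1 match lay at chr10:82694937-82694966, 61 bases before the canonical start and on the strand opposite to the gene. Longer Txnrd1 transcripts start further upstream, so that this window is intronic for them, and it also overlaps an exon of the antisense noncoding RNA Gm38560, which had 0 to 7 counts per library. The Taldo1 match lay at chr7:140971305-140971334 on the plus strand, 756 bases before the start, outside annotated genes. A match is a description of these letters and not a binding site, and the absence of these letters from the other 6 windows says nothing of NRF2 there.

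The siRNA sequences were searched against the same genes, since bases 2 to 8 of an antisense strand (the seed) can pair with 3′ untranslated regions (UTRs). The study lists siRNAs 05 to 08 against mouse YBX3. The antisense strand of siRNA 06 and its match in Gclc, and that of siRNA 08 and its match in Srxn1, are printed with the seed or its complement in capitals:
siRNA 06 antisense: aUAGUAGCcgcgucuguac
Gclc 3′ UTR, base 132 of 1237: tgcaagtgGCTACTAgaagctcc
siRNA 08 antisense: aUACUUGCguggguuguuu
Srxn1 3′ UTR, base 5036 of 6575: accagcctGCAAGTAgaatagcc

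A match to any of the 4 seeds was found in 2 of the 9 genes, against 20.4% of 12933 genes with an annotated UTR. The listed strands of siRNA 07 are not complementary, so its seed is uncertain. The other 3 seeds gave the same 2 of 9, against 16.4%. A match to siRNA 06 was found in 4.9% of those genes, and one to siRNA 08 in 6.84%. The part of these matches in the levels of Gclc and Srxn1 was not tested.

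Library totals ranged from 33451547 to 71811371 counts, and the 9 genes had between 1223 and 27168 counts in each library, so that counting error was small beside the spread between libraries. Levels are given as CPM (counts per 1000000, scaled by TMM factors). Ybx3 itself checked the labels. It was at 264.5 to 346.6 CPM in the 6 control KD libraries and at 28.7 to 71.5 CPM in the 7 YBX3 KD libraries, 14.5% of the control mean (log2 fold change -2.81 ± 0.17 SE, edgeR adjusted p = 5.26e-06). The 7 myoblast markers were all detected, with a summed level of 779.4 to 1130 CPM over the libraries, although Pax7 stayed at or under 0.179 CPM and Myod1 at or under 3.32 CPM. Markers of differentiating muscle summed to 15.6 to 88.1 CPM in control KD and 71.6 to 120.5 CPM in YBX3 KD at 0 day, and to 16.5 to 50.6 and 35.5 to 150.9 CPM at 1 day. The early marker Myog did not exceed 3.46 CPM in any library, so the markers did not separate the libraries labelled differentiating from the proliferating ones. The 8 markers of other cell types summed to at most 0.582 CPM, and Epcam was at 0. The part of the muscle markers in the results below was not tested.

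Per kilobase of the canonical transcript, the 9 genes spanned 12.2 to 112.8 CPM in control KD at 0 day. Taldo1 (112.8 ± 6.23 CPM per kb, SD, n = 4) and Txnrd1 (112.5 ± 7.32) led, followed by Pgd (91.6 ± 8.21). Nqo1 (38.2 ± 8.65), Hmox1 (36.4 ± 4.15) and Tkt (32.4 ± 8.28) formed a middle group whose neighbours did not differ beyond their spread. Gclc (17.0 ± 2.75), Srxn1 (15.4 ± 1.47) and Gclm (12.2 ± 4.68) were the lowest, and they too lay within each other's spread.

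**Figure D1:**
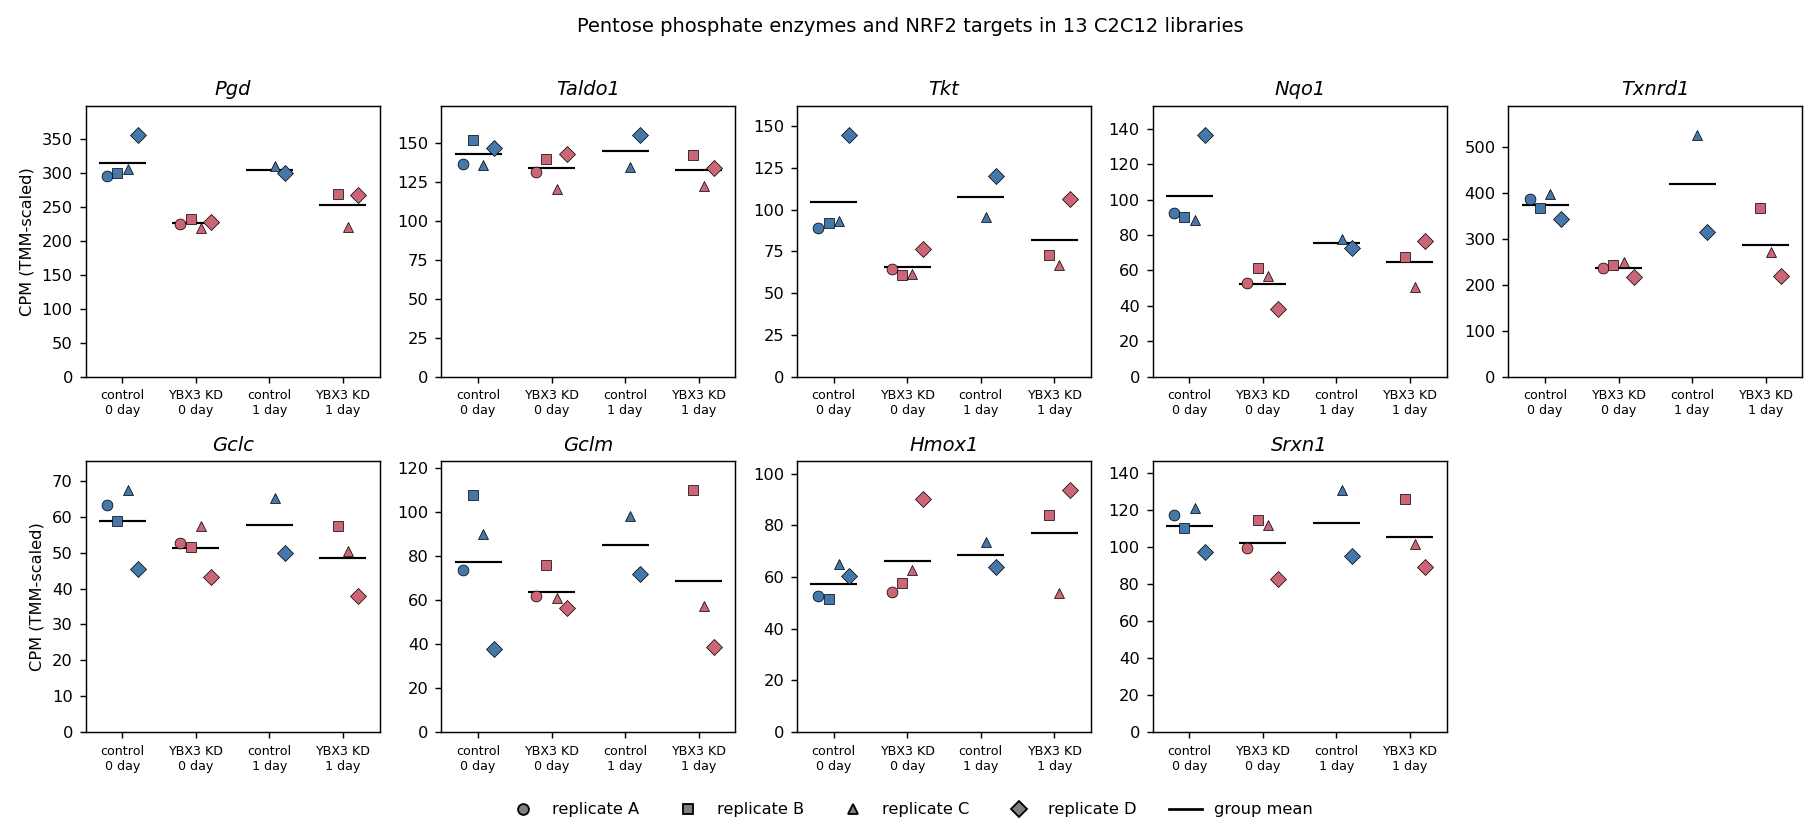
Level of each of the 9 genes in each of the 13 libraries, in CPM scaled by TMM factors, by group (x axis) and replicate letter (marker shape), with the group mean as a line. Pgd is below every control KD library in all 7 YBX3 KD libraries, Tkt, Nqo1 and Txnrd1 in 6 of 7, and replicate D is highest for Tkt and lowest for Txnrd1, Gclc, Gclm and Srxn1 in each group.

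The first question was whether YBX3 KD altered these transcripts over both time points. Pgd and Txnrd1 were reduced, to 76.3% and 66.2% of the control means. The 2 calls at an adjusted p under 0.05 compare with 2.34% of all genes tested (1.04% called and lower). Tkt, at 68.9%, and Nqo1, at 62.1%, had means as low but did not pass. Of the 9 genes, 8 had a negative log2 fold change and Hmox1 a positive one. The median over the 9 was -0.29, while the median of all genes tested was 0.0008 and 49.9% of them were lower. The 9 were chosen with earlier results of these data known, so this contrast is a description only. The study called genes by DESeq2 at a fold change above 1.3 and an adjusted p under 0.001. By DESeq2, run here without the study's hypothesis weighting, Pgd (adjusted p = 4.596e-06) and Txnrd1 (adjusted p = 0.000772) met this rule, as 1.06% of genes did. These are not the study's own calls. The study names both Pgd and Nqo1 among its decreased genes, whereas Nqo1 did not meet the rule here (DESeq2 adjusted p = 0.00553). None of the 9 met it in the edgeR fit of all libraries, where 0.113% of genes did. With replicates A to C alone, Tkt met it in edgeR (adjusted p = 0.000357), as 0.591% of genes did.

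Pgd (ENSMUSG00000028961, chr4:149233246-149251228, minus strand) encodes the enzyme that releases ribulose 5-phosphate and NADPH from 6-phosphogluconate. Control KD replicates A to D were at 295.2, 300.8, 305.5 and 356.2 CPM at 0 day, and C and D at 310.4 and 299.5 CPM at 1 day. YBX3 KD replicates A to D were at 224.4, 232.3, 218.9 and 228.0 CPM at 0 day, and B, C and D at 269.9, 220.3 and 267.8 CPM at 1 day. No YBX3 KD library reached a control KD library on either day, and replicate D stood above the other controls at 0 day. In such bulk samples, fewer cells that express a gene and less of its RNA per cell cannot be told apart. Pgd fell by 0.40 on the log2 scale (± 0.07 SE, edgeR adjusted p = 0.0109), and it passed in all 13 fits that left out 1 library. Complete separation of the 7 YBX3 KD libraries below the 6 control KD libraries, as for Pgd, was seen in 1.08% of all genes tested.

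Of the non-oxidative enzymes, Taldo1 (ENSMUSG00000025503, chr7:140972053-140982886, plus strand) lay close to its control level. It ranged from 134.3 to 155.0 CPM in control KD and from 120.3 to 142.9 CPM in YBX3 KD, and the groups overlapped. The log2 fold change was -0.11 ± 0.06 SE (edgeR, adjusted p = 0.459).

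Tkt (ENSMUSG00000021957, chr14:30270156-30299612, plus strand) encodes the thiamine-dependent transketolase. It was at 88.8, 91.8, 92.9 and 144.6 CPM in the controls at 0 day, and at 64.2, 61.1, 61.5 and 76.6 CPM after YBX3 KD. At 1 day the controls were at 95.3 and 120.3 CPM and the YBX3 KD libraries at 72.8, 67.0 and 106.4 CPM. The YBX3 KD libraries were lower on each day except that replicate D at 1 day, at 106.4 CPM, lay between the 2 controls. Replicate D was the highest library in each of the 4 groups. Across both days the log2 fold change was -0.56 ± 0.15 SE (edgeR, adjusted p = 0.0694).

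Nqo1 (ENSMUSG00000003849, chr8:108113835-108129934, minus strand) encodes the quinone reductase most often used as a readout of NRF2. At 0 day it was at 92.5, 90.4, 88.3 and 136.5 CPM in the controls, and at 53.2, 61.3, 56.9 and 38.4 CPM after YBX3 KD. At 1 day the controls were at 78.0 and 72.8 CPM and the YBX3 KD libraries at 67.8, 50.5 and 76.5 CPM. The groups were apart at 0 day and overlapped at 1 day, where YBX3 KD replicate D lay between the controls. Replicate D held both the highest and the lowest Nqo1 level of all 13 libraries, each at 0 day. Across both days the log2 fold change was -0.69 ± 0.17 SE (edgeR, adjusted p = 0.0648).

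Txnrd1 (ENSMUSG00000020250, chr10:82669785-82733546, plus strand) encodes the cytosolic thioredoxin reductase. At 0 day it was at 387.5, 367.0, 398.7 and 343.4 CPM in the controls, and at 236.1, 243.0, 249.8 and 217.6 CPM after YBX3 KD. At 1 day the controls were at 526.9 and 315.3 CPM and the YBX3 KD libraries at 368.8, 272.1 and 219.7 CPM. The groups were apart at 0 day, whereas at 1 day YBX3 KD replicate B lay between controls that themselves differed widely. Txnrd1 fell by 0.62 on the log2 scale (± 0.13 SE, edgeR adjusted p = 0.0268). The call was lost in 9 of the 13 fits that left out 1 library, with an adjusted p of up to 0.0863, and remained without control KD replicate D at either day or YBX3 KD replicate B or D at 1 day.

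The glutathione genes were nearer to their control levels. Gclc (ENSMUSG00000032350, chr9:77661797-77701770, plus strand), the catalytic subunit of glutamate-cysteine ligase, ranged from 45.5 to 67.3 CPM in control KD and from 37.8 to 57.4 CPM in YBX3 KD (log2 fold change -0.22 ± 0.12 SE, edgeR adjusted p = 0.424). Gclm (ENSMUSG00000028124, chr3:122039126-122065061, plus strand), its modifier subunit, had a wide spread. It was at 73.5, 107.6, 89.8 and 37.8 CPM in the controls at 0 day, and at 61.7, 76.0, 60.9 and 56.5 CPM after YBX3 KD. At 1 day the controls were at 98.0 and 71.9 CPM and the YBX3 KD libraries at 109.7, 57.2 and 38.4 CPM. The groups overlapped on both days, and Gclm did not pass (log2 fold change -0.29 ± 0.25 SE, edgeR adjusted p = 0.633). Leaving out 1 library moved it from -0.17 (without control KD replicate B at 0 day) to -0.46 (without YBX3 KD replicate B at 1 day).

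Hmox1 (ENSMUSG00000005413, chr8:75820241-75827217, plus strand), heme oxygenase 1, was the gene with the opposite sign. It was at 52.5, 51.3, 65.1 and 60.3 CPM in the controls at 0 day, and at 54.1, 57.6, 62.9 and 90.3 CPM after YBX3 KD. At 1 day the controls were at 73.6 and 63.7 CPM and the YBX3 KD libraries at 83.9, 54.0 and 93.5 CPM. Both YBX3 KD libraries of replicate D lay above every control. Replicate B at 1 day did too, whereas replicate C at 1 day lay below both controls of its day and A to C at 0 day overlapped theirs. Hmox1 did not pass (log2 fold change 0.19 ± 0.14 SE, edgeR adjusted p = 0.573), and with replicates A to C alone its log2 fold change was 0.0022. Srxn1 (ENSMUSG00000032802, chr2:151947436-151957687, plus strand), sulfiredoxin, ranged from 95.0 to 130.4 CPM in control KD and from 82.8 to 125.8 CPM in YBX3 KD, and did not pass either (log2 fold change -0.11 ± 0.11 SE, edgeR adjusted p = 0.668). Leaving out 1 library moved Srxn1 from -0.06 (without control KD replicate C at 1 day) to -0.18 (without control KD replicate D at 1 day), and Hmox1 from 0.09 (without YBX3 KD replicate D at 0 day) to 0.26 (without YBX3 KD replicate C at 1 day).

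**Figure D2:**
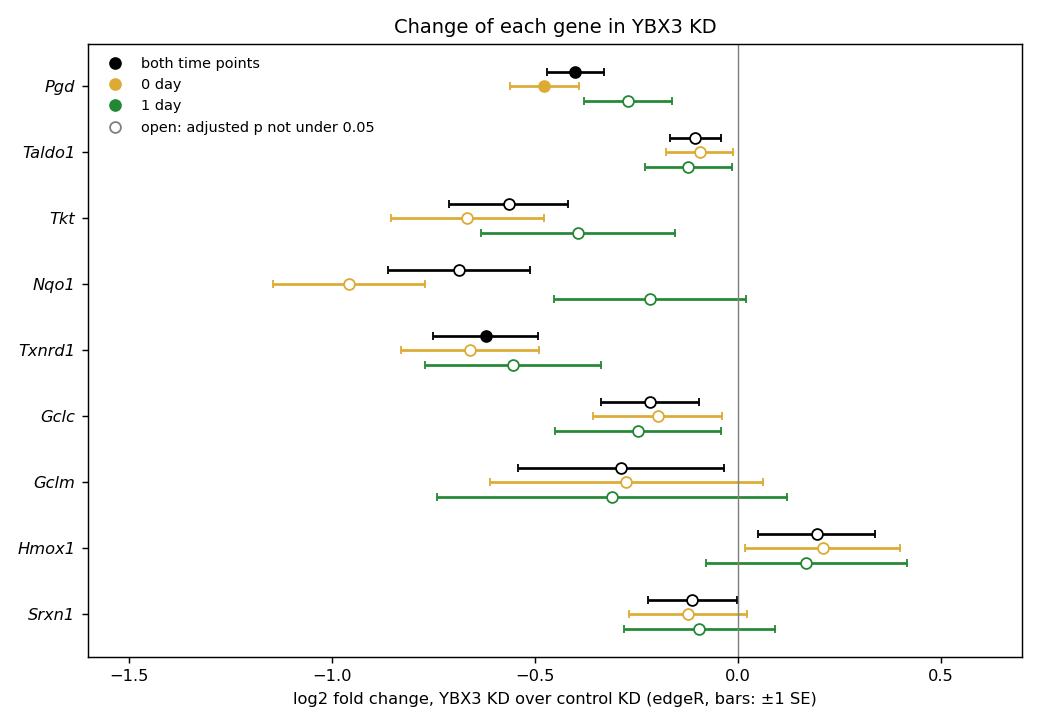
Log2 fold change of YBX3 KD over control KD for each gene (x axis, edgeR, bars ± 1 SE) over both time points, at 0 day and at 1 day. Filled points passed at an adjusted p under 0.05: Pgd over both time points and at 0 day, and Txnrd1 over both. Hmox1 is the only gene of the 9 to the right of 0.

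Libraries with the same replicate letter deviated together across groups, which was not separated from the departure of replicate D. With the letter as a block, 5 of the 9 genes passed over both time points, against 9.78% of all genes. Tkt (-0.53 ± 0.08 SE, adjusted p = 0.00527), Nqo1 (-0.70 ± 0.19 SE, adjusted p = 0.0443) and Gclc (-0.23 ± 0.06 SE, adjusted p = 0.0383) joined the 2 called without it, and Txnrd1 was at -0.65 ± 0.10 SE (edgeR with a replicate block, adjusted p = 0.00553). The adjusted p of Tkt ranged from 6.91e-08 to 0.157 over all alternatives, that of Nqo1 from 0.00195 to 0.152 and that of Gclc from 0.00492 to 0.656. The same 5 genes passed with replicates A to C alone, where 12.5% of all genes passed. DESeq2 in place of edgeR called 4 (Pgd, Tkt, Nqo1 and Txnrd1), against 6.41% of the genes for which it gave an adjusted p. DESeq2 with the block called 6, the 5 above and Taldo1, against 18.7%.

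Within the 6 pairs of libraries that share a letter and a day, the ratio of YBX3 KD to control KD gave each gene's direction without the spread between letters. YBX3 KD was lower in 6 of 6 pairs for Pgd, Taldo1, Tkt, Txnrd1 and Gclc, a pattern held by 7.97% of all genes tested. It was lower in 5 of 6 pairs for Nqo1, Gclm and Srxn1 and in 2 of 6 for Hmox1. Txnrd1 was at 51.6% to 69.7% of its paired control and Pgd at 64.0% to 89.4%, whereas Taldo1, at 86.2% to 97.6%, was lower by little in every pair. Nqo1 had the widest range on the log2 scale. It was at 57.5%, 67.9% and 64.5% of the paired control in A, B and C at 0 day and at 64.7% in C at 1 day, but at 28.1% in D at 0 day and 105.0% in D at 1 day. Gclm in D went from 149.6% at 0 day to 53.4% at 1 day. The pairs of replicate D were the highest and the lowest of the 6 for 6 of the 9 genes, against 36.3% of the 16190 genes with a ratio in every pair. Without replicate D, the ratios of Nqo1 and Gclm were below 100% in each of the 4 remaining pairs. The share of all genes is not given for these 4 pairs or for 5 of 6 pairs. YBX3 KD replicate B at 1 day has no control KD library of its letter and is in no pair. Its Gclm level (109.7 CPM) was above every control KD library (at most 107.6 CPM). Its Nqo1 level (67.8 CPM) was below every control KD library (at least 72.85 CPM).

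**Figure D3:**
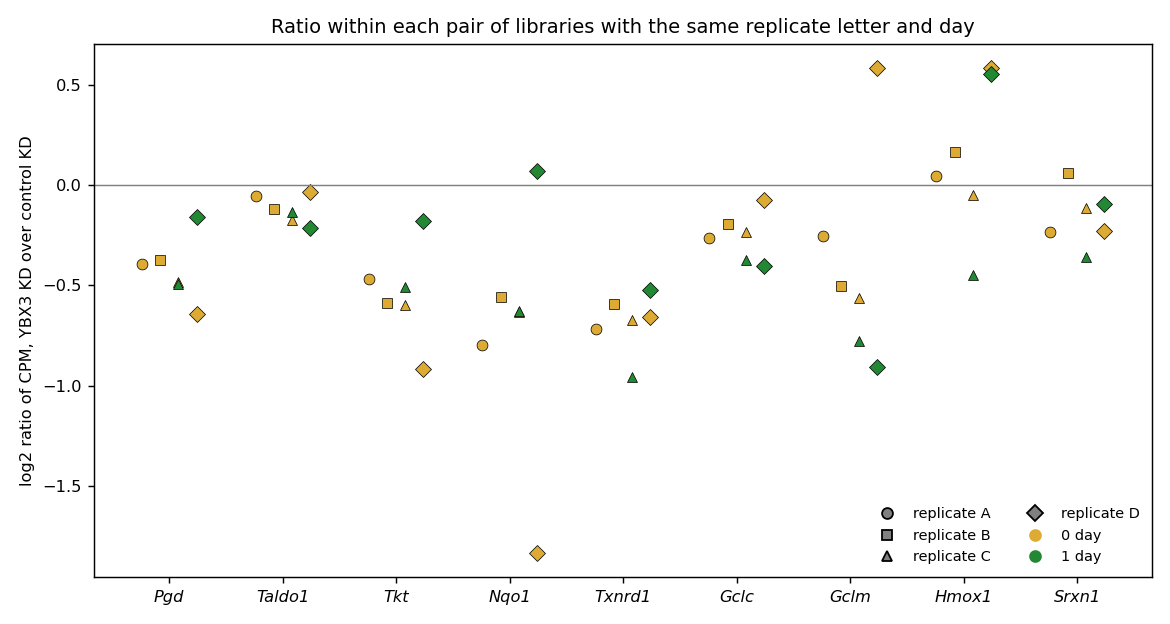
Log2 ratio of CPM, YBX3 KD over control KD, within each of the 6 pairs of libraries that share a replicate letter (marker shape) and day (colour), for each gene. Pgd, Taldo1, Tkt, Txnrd1 and Gclc are below 0 in 6 of 6 pairs, and the pairs of replicate D give both extremes for Pgd, Taldo1, Tkt, Nqo1, Gclc and Gclm.

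Replicate D was the lowest library in all 4 groups for Txnrd1, Gclc, Gclm and Srxn1 and the highest in all 4 for Tkt. Across all genes tested, 21.3% were lowest and 21.9% highest in replicate D in all 4 groups, so that 4 and 1 genes of 9 are read against these shares. The ratio of D to the mean of the other libraries of its group was 0.418 to 0.853 for Gclm and 0.701 to 0.803 for Gclc. For Tkt it was 1.23 to 1.59, and for Nqo1 it was above 1 in 2 groups and below 1 in the other two.

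The second question was the effect at each time point. At 0 day Pgd (-0.48 ± 0.08 SE, edgeR adjusted p = 0.0388) was reduced, 1 of the 9 against 0.427% of all genes. Nqo1 had a log2 fold change of -0.96 ± 0.19 SE (adjusted p = 0.0572), Tkt of -0.67 ± 0.19 (adjusted p = 0.175) and Txnrd1 of -0.66 ± 0.17 (adjusted p = 0.138) by edgeR. Every YBX3 KD library at 0 day was below every control KD library at 0 day for these 4 genes, as for 4.27% of all genes tested. With the letter as a block all 4 passed, against 2.37% of all genes: Nqo1 at -0.94 ± 0.20 SE (adjusted p = 0.0452), Tkt at -0.64 ± 0.08 (adjusted p = 0.00871) and Txnrd1 at -0.66 ± 0.12 (adjusted p = 0.0307) joined Pgd. The same 4 passed with replicates A to C alone (5.49% of all genes) and by DESeq2 without the block (3.0%) or with it (8.43%). By DESeq2 without the block, Pgd and Nqo1 met the study's rule (0.635% of genes). Over all alternatives the adjusted p ranged from 9.075e-05 to 0.174 for Nqo1, from 9.09e-10 to 0.383 for Tkt and from 4.71e-05 to 0.338 for Txnrd1. Leaving out 1 library ended the call of Pgd in 10 of 13 fits, the exceptions being the YBX3 KD libraries at 1 day (adjusted p up to 0.137).

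At 1 day, with 2 control KD libraries, none of the 9 genes passed in edgeR, where 0.0712% of all genes did. Pgd (log2 fold change -0.27 ± 0.11 SE) and Txnrd1 (-0.55 ± 0.22 SE) had an unadjusted p under 0.05. Of all genes, 7.79% had such a p. Their adjusted p-values in edgeR were 0.590 and 0.588. Leaving out 1 library moved Txnrd1 from -0.13 (without control KD replicate C) to -0.88 (without control KD replicate D), and Gclm, at -0.31, from -0.02 (without YBX3 KD replicate D) to -0.82 (without YBX3 KD replicate B). Pgd ranged from -0.32 to -0.18 in those fits. DESeq2 called none of the 9 (0.76% of genes). With the letter as a block, edgeR again called none, 6 of the 9 (Pgd, Taldo1, Tkt, Txnrd1, Gclc and Gclm) had an unadjusted p under 0.05, against 27.1% of all genes, and Gclm was at -0.69 ± 0.25 SE (adjusted p = 0.124). DESeq2 with that block called Tkt (adjusted p = 0.0418), Txnrd1 (adjusted p = 0.00954), Gclc (adjusted p = 0.0461) and Gclm (adjusted p = 0.0383), against 15.8% of genes. In the edgeR fit of all libraries without the block, the direction was the same as at 0 day for each of the 9 genes, 8 lower and Hmox1 higher. At 1 day Hmox1 was at -0.09 with replicates A to C alone, and Srxn1 reached 0.16 when 1 library was left out.

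The difference between the 2 effects was then tested directly. No gene of the table passed (0.0%), and of the 9 only Nqo1 had an unadjusted p under 0.05 in the fit without the block. Its effect was 0.74 ± 0.30 SE weaker at 1 day than at 0 day on the log2 scale (edgeR, adjusted p = 1.00), and with replicates A to C alone the difference was 0.27 ± 0.19 SE. The differences for Pgd (0.21 ± 0.14 SE), Tkt (0.27 ± 0.31) and Txnrd1 (0.11 ± 0.28) were within 2 SE of 0. When 1 library was left out, the difference ranged from 0.04 to 0.45 for Tkt and from 0.15 to 0.30 for Pgd. With replicates A to C alone that of Txnrd1 was -0.05. With the letter as a block, Tkt had an unadjusted p under 0.05 (0.31 ± 0.13 SE, edgeR adjusted p = 0.433), against 11.0% of all genes. Nqo1 did not in that fit (0.69 ± 0.32 SE, edgeR adjusted p = 0.433). DESeq2 called 1 gene of the table without the block and 47 with it, and limma-voom none, with none of the 9 among them.

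The last comparison was between the days. From 0 day to 1 day, over both siRNAs, no gene passed in edgeR (0.0%), and none of the 9 had an unadjusted p under 0.05 in the fit without the block. The 3 with the largest differences were Hmox1 (0.24 ± 0.15 SE), Txnrd1 (0.23 ± 0.13) and Tkt (0.20 ± 0.15), all higher at 1 day. When 1 library was left out, Hmox1 ranged from 0.16 to 0.34, Txnrd1 from 0.11 to 0.35 and Tkt from 0.07 to 0.28. With the letter as a block Txnrd1 alone of the 9 had an unadjusted p under 0.05, against 4.74% of all genes. With replicates A to C alone Tkt, Txnrd1 and Hmox1 had one, against 11.6%, and Txnrd1 was at 0.42 ± 0.09 SE (edgeR adjusted p = 0.0628). Nqo1 (-0.01 ± 0.18) and Taldo1 (0.0040 ± 0.06) were closest to 0. DESeq2 called 2 genes of the table without the block and 30 with it, and limma-voom none, again with none of the 9.

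The other genes of these pathways were taken from lists, and none of them passed over both time points in the edgeR fit of all libraries without the block. Of 9 tested of 11 other enzymes of pentose and ribose phosphate metabolism, 2 were higher and 7 lower, with a median log2 fold change of -0.04. Pgls, the lactonase of the oxidative arm, was at 45.3 ± 5.42 CPM in control KD (SD, n = 6) and 44.6 ± 4.88 in YBX3 KD (n = 7). The ribose and ribulose phosphate converters Rpia and Rpe were at 13.1 ± 2.44 and 51.4 ± 6.67 CPM in control KD and at 11.1 ± 0.937 and 50.1 ± 7.98 CPM in YBX3 KD. Pgm2 alone had an unadjusted p under 0.05 (-0.13 ± 0.06 SE, edgeR adjusted p = 0.292), against 15.6% of all genes. DESeq2 and limma-voom called none of the list, and DESeq2 with the letter as a block called Pgm2 (adjusted p = 0.0466), as it did 18.7% of genes. Pgls, Rpia, Rpe and Pgm2, and the genes named in the next 3 paragraphs other than Nfe2l2, Keap1 and the 9, were chosen after their values were seen.

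Of 9 other enzymes that make NADPH, 2 were higher and 7 lower, with a median of -0.26. Idh2, the mitochondrial NADP-dependent isocitrate dehydrogenase, was at 236.9 ± 31.1 CPM in the controls, against 176.2 ± 29.2 CPM after YBX3 KD (-0.44 ± 0.11 SE, edgeR adjusted p = 0.0692). It was the 1 gene of the list with an unadjusted p under 0.05, as 15.6% of all genes had. It passed with the letter as a block (adjusted p = 0.00363, against 9.78% of genes) and was called by DESeq2 (6.41%). With replicates A to C alone 4 of the 9 passed as lower (Idh2, Nnt, Aldh1l2 and Me2), where 12.5% of all genes passed. Over all alternatives the adjusted p of Idh2 ranged from 5.86e-10 to 0.177. Idh1, its cytosolic counterpart, was at 131.4 ± 39.6 and 106.8 ± 43.3 CPM (-0.30 ± 0.27 SE, edgeR adjusted p = 0.638). Without control KD replicate D at 1 day it was at -0.16, and without YBX3 KD replicate D at 1 day at -0.48.

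Of 30 tested of 32 other NRF2 targets, 9 were higher and 21 lower over both time points, with a median of -0.10. At 0 day 6 were higher and 24 lower (median -0.17), and at 1 day 16 were higher and 14 lower (median 0.04). The difference between the days was positive for 25 of the 30, with a median of 0.24, and 0.08 with replicates A to C alone. Those replicates gave 9 higher and 21 lower at 0 day (median -0.10), and 15 higher and 15 lower at 1 day (median 0.0012). None passed in the edgeR fits of all libraries without the block, with 4 at an unadjusted p under 0.05 over both time points, 7 at 0 day and 3 at 1 day. Of all genes tested, 15.6%, 11.0% and 7.79% were at such a p, so that in these fits the shares over both time points and at 1 day were near this background. Those 4 were glutathione reductase Gsr (115.7 ± 11.7 CPM in control KD, 96.0 ± 17.2 in YBX3 KD, log2 fold change -0.30 ± 0.08 SE, adjusted p = 0.0618), Blvrb, Pir and the glutathione transferase Gsta2. Gsta2 went the other way, from 4.32 ± 1.57 to 7.04 ± 1.85 CPM (0.78 ± 0.21 SE, adjusted p = 0.0779), and shares a family of near-identical genes, so that its counts are uncertain. DESeq2 called 2 of the 30 over both time points (Gsr and Gsta2, against 6.41% of genes) and Gstp1 at 0 day (3.0%). With the letter as a block 4 passed over both time points (Gsr, Txn1 and Prdx1 lower and Gsta2 higher, against 9.78%). Over both time points 14 of the 30 had an unadjusted p under 0.05 with that block, and 11 with replicates A to C alone. The share of all genes is not given for these 2 counts, and the 15.6% of the fit without the block is not their background. They are therefore not read as a result about the list. At 1 day the block gave 7 at such a p, against 27.1% of all genes. With replicates A to C alone Gsr passed as lower and Ephx1 as higher, both over both time points (12.5%) and at 0 day (5.49%). Thioredoxin (Txn1), the substrate of Txnrd1, was at 384.9 ± 50.6 and 331.7 ± 59.9 CPM (-0.22 ± 0.13 SE, edgeR adjusted p = 0.456 without the block and 0.0292 with it, and 0.0015 to 0.669 over all alternatives). Slc7a11, which imports cystine, a source of cysteine for glutamate-cysteine ligase, was at 4.95 ± 0.900 and 4.93 ± 1.93 CPM over both time points. Its log2 fold change was -0.46 ± 0.22 SE at 0 day (edgeR adjusted p = 0.473) and 0.64 ± 0.29 SE at 1 day (adjusted p = 0.632).

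Of the 13 regulators of NRF2, 6 were higher and 7 lower over both time points, with a median of -0.0006. The counts were the same at 0 day (median -0.02), and at 1 day 10 were higher and 3 lower (median 0.05). With replicates A to C alone 7 were higher and 6 lower at 0 day (median 0.0035). At 1 day those replicates gave 6 higher and 7 lower (median -0.0054). The difference between the days had a median of 0.20, and of -0.02 with replicates A to C alone (5 higher and 8 lower). Nfe2l2, which encodes NRF2, was at 115.6 ± 18.0 CPM in the controls, against 104.6 ± 14.7 CPM after YBX3 KD (-0.16 ± 0.11 SE, edgeR adjusted p = 0.545). It was at -0.06 when control KD replicate D at 0 day was left out, and at -0.22 when YBX3 KD replicate D at 1 day was. Keap1, which encodes its inhibitor, was at 48.4 ± 2.77 and 43.4 ± 2.55 CPM (-0.16 ± 0.06 SE, edgeR adjusted p = 0.192) and was called by DESeq2, as were 6.41% of genes. Mafk, a small MAF partner of NRF2, was at 34.2 ± 5.66 and 44.0 ± 9.15 CPM (0.37 ± 0.14 SE, edgeR adjusted p = 0.202), and passed as higher with the letter as a block, as 9.78% of genes passed there (adjusted p = 0.0181, and 0.00081 to 0.384 over all alternatives). None of the 13 passed in the edgeR fit without the block, and 2 (Keap1 and Mafk) had an unadjusted p under 0.05, as had 15.6% of all genes.

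**Figure D4:**
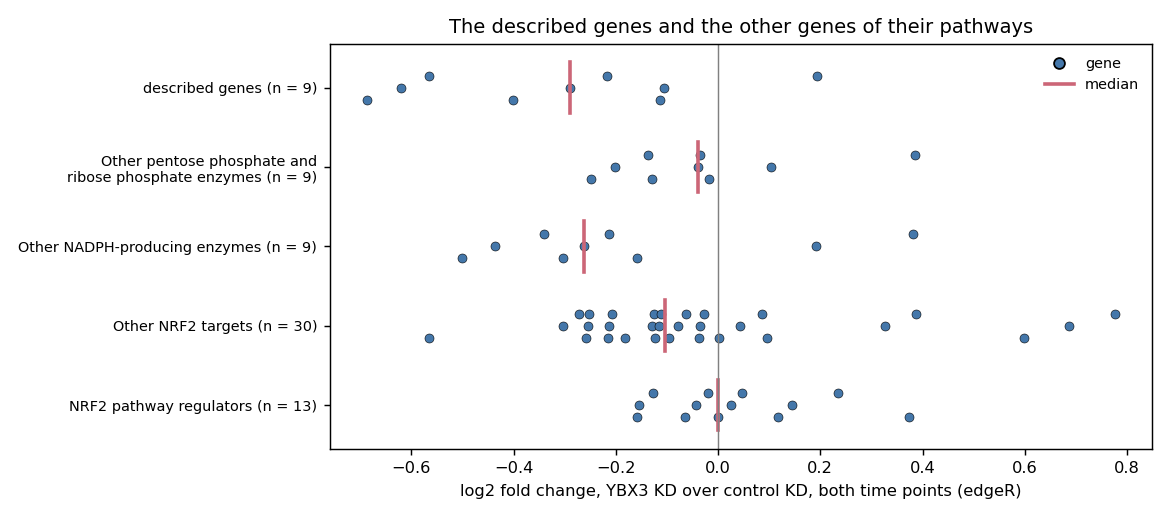
Log2 fold change over both time points (x axis, edgeR) of each tested gene of the 9 described and of 4 lists, with the median of each as a line. The median is -0.29 for the 9 genes, -0.04, -0.26 and -0.10 for the other pentose phosphate, NADPH and NRF2 genes, and close to 0 for the regulators.

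The genes whose levels followed Nqo1 most closely were found by Pearson's r of log2 CPM over the 13 libraries. The libraries share the siRNA groups and the replicate letters, so r is a description of these libraries only. The highest were Rpl23a (0.916), Rpl3-ps1 (0.908), Pgd (0.902), Pcbp2 (0.881) and Actg1 (0.872). Rpl3-ps1 is a processed copy whose counts may come from reads of its parent gene. Pgd was thus the third closest of all genes tested, with Tkt 99th (r = 0.751), Txnrd1 435th (r = 0.618) and Taldo1 1880th (r = 0.391). The other NRF2 targets had r of 0.303 (Srxn1), 0.218 (Gclc), -0.008 (Gclm) and -0.244 (Hmox1).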

How the data were processed

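RNAseq libraries were prepared from 13 C2C12 samples. Per the labels and methods, Salmon was run by the authors on GRCm39 (Gencode M30), and the deposited values are its estimated counts per gene, without normalization. The values are whole numbers, and the step that summed them by gene is not given in the sources used here. Total counts per library are given with the results.

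The tests used edgeR 4.0.16 in R 4.3.3 (filterByExpr on the 4 groups, TMM, quasi-likelihood test with default settings), and p-values were Benjamini-Hochberg adjusted over all genes tested. A gene passed at an adjusted p under 0.05. A fit with terms for siRNA and day gave the comparison over both time points and the effect of day. Contrasts within a day and their difference came from a fit with 1 coefficient per group. SE is the log2 fold change divided by the square root of the F statistic. The edgeR fits without a block were tested on simulated counts, drawn with no effect of day or replicate letter. The other fits were not tested in that way. CPM uses TMM-scaled library sizes. Ensembl identifiers were matched to GENCODE vM39 for symbols and positions (673 had no symbol there). Figures were drawn in Python 3.11.15 with matplotlib 3.10.9.

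Libraries carry a replicate letter and a title number that disagree at 1 day. Deviations from the group means correlated above 0.1 in all 16 pairs of same-letter libraries of different groups (0.207 to 0.843), against 13 of 46 pairs of other letters and 10 of 16 pairs of the same title number. The letters were therefore used to pair the samples, from the data and not from the labels. Deviations within a group offset each other, so a departure of replicate D moves the rest together. In the smallest group, of 2 libraries, they are equal and opposite. Replicate D was lowest in all 4 groups for 21.3% of genes and highest for 21.9%. These correlations thus cannot show that replicates A to C are paired, and their pairing apart from replicate D was not tested. Alternatives were DESeq2 1.42.0, limma-voom (limma 3.58.1), other factors and filters, either block, fewer libraries and the study's rule. The ratios within letter pairs and the study's rule on the DESeq2 fits (without its independent hypothesis weighting), on the edgeR fit with the letter block and on that of replicates A to C were added after seeing the data.

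The genes and the lists were chosen with earlier results of these data known. The result of 1 of the 10 genes chosen, and what was fixed for it, is not reported here. The genes named in full were the other 9, Ybx3, Nfe2l2, Keap1, any list gene that passed over both time points, and the 5 genes closest to Nqo1. The response element was widened to its second spelling after the first had matched 1 of the genes.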

Additional observations from a re-analysis of the deposited data

Results flagged for a closer look

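In control KD at 0 day, replicate D stood apart from replicates A to C for 3 of the 9 genes: the gap to the nearest library exceeded Dixon's 95% limit, as a share of the range of the group. Pgd was at 356.2 CPM there, against 295.2 to 305.5 CPM in the other 3 libraries. Tkt was at 144.6 CPM, against 88.8 to 92.9 CPM. Nqo1 was at 136.5 CPM, against 88.3 to 92.5 CPM. Of 20 groups tested (the 9 genes and Ybx3 in the 2 groups of 4 libraries), 3 exceeded the limit, where chance gives about 1 in 20 for independent groups. These groups are not independent. All 3 flags are in the same library, and Nqo1 and Pgd were correlated over the 13 libraries (r = 0.902). The share of all genes that exceeded the limit is not given, so the 3 are not read against chance. No explanation was tested.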

How the results depend on the processing

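Over both time points, limma-voom, other scaling factors and other filters gave the same 2 calls among the 9 genes. The block by title number gave 3 (adding Tkt) and a fit with no day term 3 (adding Nqo1). DESeq2 gave 4, the replicate block by letter 5, DESeq2 with that block 6 (adding Taldo1, against 18.7% of genes), replicates A to C alone 5. The study's rule gave 0 in edgeR without and with the block by letter, 1 in edgeR with replicates A to C alone (Tkt), 2 in DESeq2, the tool the study used, and 3 in DESeq2 with the block by letter (Pgd, Tkt and Txnrd1). Leaving out 1 library gave 1 to 4. At 0 day, where 1 gene passed, DESeq2 gave 4, testing all genes unfiltered 0, requiring each library to hold at least 10 counts of a gene 2, only the libraries of that day 2, the replicate block by letter 4, DESeq2 with that block 4, the block by title number 0, replicates A to C alone 4, the study's rule 0 in these 3 edgeR fits, 2 in DESeq2 and 4 in DESeq2 with the block by letter, and leaving out 1 library 0 to 2. At 1 day, where none passed, DESeq2 with the replicate block by letter gave 4 (Tkt, Txnrd1, Gclc and Gclm), against 15.8% of genes. The difference between days and the effect of day gave 0 under every alternative run. The block by letter changed no other call of the 9 genes. No share of all genes is given for limma-voom, other factors or filters, the block by title number, no day term, or left-out libraries. None is given for the fit of the 0 day libraries or the study's rule in DESeq2 with the block by letter. Those counts show only which of the 9 genes were called. The cause of these changes was not tested.

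Of 983 gene values under an alternative, 901 kept their direction and call, 58 gained the call, 21 lost it and 3 changed sign. The 3 were at 1 day: Hmox1 at -0.0876 with replicates A to C alone, and Srxn1 without control KD replicate C and without YBX3 KD replicate D, with a range of -0.3094 to 0.1557 when 1 library was left out. For the day effect the 983 values hold only Hmox1, Txnrd1 and Tkt, and for the difference between days only Nqo1, Pgd and Tkt. Of all 9 genes, 5 changed sign under some alternative for the day effect and 6 for the difference between days. None of those sign changes is among the 983 values. Counting depth was high for these genes, and the number of libraries, with 2 in control KD at 1 day, limits the precision.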
